A study of Homo sapiens with 12 samples.

Results

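Selenoproteins carry the amino acid selenocysteine, and the transcripts described here code for 9 of them, together with SECISBP2, which binds the RNA element that directs selenocysteine into the chain. The genes were GPX1, GPX2, GPX3, GPX4, SEPP1, SEPW1, SELM, SEPHS2, TXNRD2 and SECISBP2. They were taken from the deposited count table by gene symbol, 10 of the 63677 genes it lists, and all 10 passed the filter that left 17092 genes for testing. The current symbols of SEPP1, SEPW1 and SELM are SELENOP, SELENOW and SELENOM.

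The study asked how graphene oxide (GO), a flat carbon carrier, changes transcription in Huh7 cells, and whether ginsenoside Rg3, a plant saponin, and doxorubicin (DOX), an anthracycline that damages DNA, alter that response when loaded onto it. Huh7 is a human hepatocarcinoma line. RNA was sequenced after 6 h from 4 groups of 3 samples: untreated cells kept in medium only, and cells given a carrier at 1 of 2 doses, 400 µg/mL for both GO and GO–Rg3 but 100 µg/mL for GO–Rg3–DOX. All 4 groups were the same cell line, the labels do not say that replicates were separate cultures, and p-values therefore measure the spread between these samples. GO–Rg3–DOX was given at a lower dose than GO and GO–Rg3, and the paper reports that its flakes were larger than both. The parts of the drug, the dose, the flakes, the carrier and Rg3 therefore cannot be told apart. Cells given free DOX were not analysed here.

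Selenocysteine is inserted at UGA, a codon that otherwise ends translation. An RNA hairpin in the untranslated end of the message, the SECIS element, recruits SECISBP2, an elongation factor and the selenocysteine tRNA, and the selenium donor for that tRNA is made by SEPHS2, which is itself a selenoprotein. Liver cells secrete SEPP1, the plasma protein that carries selenium to other tissues, and use the glutathione peroxidases and thioredoxin reductases to remove peroxides and keep thiols reduced.

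The codon that sets these messages apart is shown for the 8 genes that have 1 such codon, read in frame from the GENCODE release 44 transcripts lifted to GRCh37, with the TGA in capitals (UGA in the RNA). The 4 glutathione peroxidases come first, because their windows resemble each other, then the other 4 genes.
GPX1: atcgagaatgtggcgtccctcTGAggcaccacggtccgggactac
GPX2: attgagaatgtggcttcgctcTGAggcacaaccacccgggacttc
GPX3: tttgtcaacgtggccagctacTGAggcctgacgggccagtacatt
GPX4: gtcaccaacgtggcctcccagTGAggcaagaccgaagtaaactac
SEPW1: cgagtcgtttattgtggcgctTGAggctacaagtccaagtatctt
SELM: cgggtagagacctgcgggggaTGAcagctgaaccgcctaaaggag
SEPHS2: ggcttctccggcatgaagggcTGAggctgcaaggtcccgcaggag
TXNRD2: gaccccacggtgacaggctgcTGAggg

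In GRCh37 the capital codon of GPX1 lies at chr3:49395565-49395567 on the minus strand, in exon 1 of 2, and is codon 49 of 203. That of GPX2 is at chr14:65409325-65409327 on the minus strand (exon 1 of 2, codon 40 of 190), that of GPX3 at chr5:150405030-150405032 on the plus strand (exon 2 of 5, codon 73 of 226) and that of GPX4 at chr19:1105402-1105404 on the plus strand (exon 3 of 7, codon 73 of 197). SEPW1 carries it at chr19:48283989-48283991 on the plus strand (exon 2 of 6, codon 13 of 87), SELM at chr22:31501937-31501939 on the minus strand (exon 2 of 5, codon 48 of 145) and SEPHS2 at chr16:30456869-30456871 on the minus strand (its only exon, codon 60 of 448). The printed windows of SEPW1 and SELM run across an exon junction. TXNRD2 differs from the others in position: its codon, at chr22:19864634-19864636 on the minus strand (exon 17 of 18), is codon 523 of 524, so that the coding sequence ends 1 codon later.

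SEPP1 is the exception in number, with 10 such codons. The first is codon 59 of 381, at chr5:42808279-42808281 on the minus strand in exon 2 of 5, and the other 9 lie close together in exon 5, codons 300 to 378. The last 252 coding bases, chr5:42800825-42801076 on the minus strand, are shown because they hold all 9, in capitals.
SEPP1: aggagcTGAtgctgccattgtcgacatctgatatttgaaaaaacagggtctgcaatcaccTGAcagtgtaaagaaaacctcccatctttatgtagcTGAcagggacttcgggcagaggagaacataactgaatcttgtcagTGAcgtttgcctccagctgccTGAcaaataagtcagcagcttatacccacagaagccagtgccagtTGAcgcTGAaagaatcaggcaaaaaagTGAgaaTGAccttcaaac

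No selenocysteine codon is annotated in the coding sequence of SECISBP2 (854 codons), which is not a selenoprotein itself. The windows come from the reference and say nothing about how these codons were read in the cells, since RNA levels alone were measured.

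Each sample held between 27802871 and 38877420 counts. Counts of mitochondrially encoded genes took 5.31% to 6.28% of the counts in untreated cells, 12.1% to 24.1% after GO, 6.89% to 7.42% after GO–Rg3 and 12.8% to 19.4% after GO–Rg3–DOX, with the highest shares in GO replicate 1 and GO–Rg3–DOX replicate 1. Of 8 hepatocyte markers, the lowest group mean was 179.6 CPM (HNF4A after GO–Rg3–DOX) and the highest 14300.1 CPM (AFP after GO–Rg3–DOX). The leukocyte, endothelial and fibroblast markers PTPRC, PECAM1 and DCN had group means of at most 0.0352 CPM and CD68 of at most 0.145 CPM, while COL1A2, also a fibroblast marker, had group means of 1.87 to 4.29 CPM. Summed over the 8 hepatocyte markers untreated samples had 23138 to 23270 CPM, GO samples 14466 to 17532, GO–Rg3 samples 17877 to 21435 and GO–Rg3–DOX samples 30215 to 35485 CPM, and summed over the 5 markers of other cell types it was at most 4.94 CPM.

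Levels are given as CPM, the gene's count for each 1000000 counts of the library size after TMM scaling, and as mean ± SD over 3 samples. In untreated cells the genes differed widely in level. Per kilobase of exon, SEPHS2 was the highest at 233 ± 4.08 CPM per kb, followed by GPX2 (148 ± 4.70), GPX4 (112 ± 2.56), GPX3 (92.2 ± 1.498) and GPX1 (66.5 ± 7.35). SEPP1 followed at 28.3 ± 1.32 CPM per kb, then SEPW1 (9.24 ± 0.297), SECISBP2 (7.87 ± 0.0922), SELM (4.05 ± 0.508) and TXNRD2 (2.39 ± 0.188). On this scale no neighbours in the order overlapped between their samples. With the length of the longest transcript in place of all exons the order was the same, but GPX2, GPX4 and GPX3 stood at 175, 175 and 173 CPM per kb with overlapping samples, and SELM and TXNRD2 also overlapped at 6.23 and 6.22 CPM per kb. The order rests on the length used. The transcripts whose codons are shown above have only 851 bases for GPX4, 922 for GPX2 and 758 for SEPW1, against 2244 for SEPHS2. Levels on those lengths were not computed, and the order there, with SEPHS2 at the top, may differ.

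**Figure D1:**
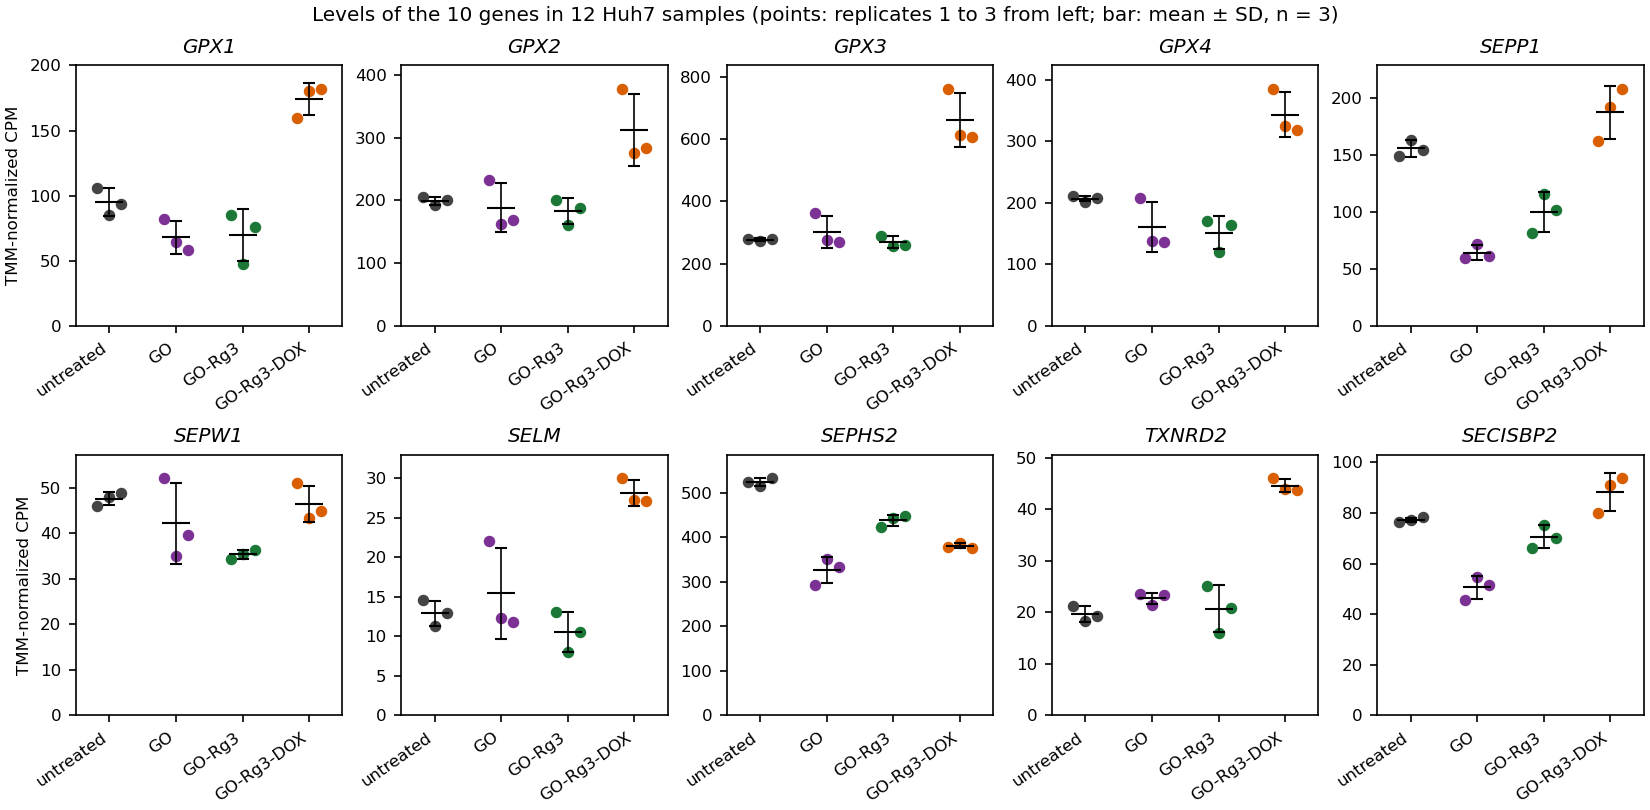
TMM-normalized CPM of each of the 10 genes (vertical axis, from 0) in the 4 groups; points are replicates 1 to 3 from left to right, and bars are mean ± SD. SEPP1 lay between 59.7 and 71.7 CPM in the GO samples against 149 to 163 CPM in untreated cells, and GPX3 between 606 and 761 CPM in the GO–Rg3–DOX samples against 272 to 280.5 CPM in untreated cells.

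After GO, 3 of the 10 messages were lower than in untreated cells. SEPP1 fell to 0.413 times its untreated level, SEPHS2 to 0.623 times and SECISBP2 to 0.656 times, while none of the 4 glutathione peroxidases passed the test. A gene is said to have risen or fallen where its adjusted p in edgeR's quasi-likelihood test was below 0.01 (Benjamini-Hochberg adjustment over all genes tested), and is called where its log2 fold change was also above 1 or below -1. Thus 0 of the 10 genes rose, 3 fell and 1, SEPP1, was called, a call that ended with an offset for GC content (log2 fold change -0.90), while the fall still passed. Over all genes tested, 12.1% rose, 15.4% fell and 6.47% were called. The median log2 fold change of the 10 genes was -0.27, against 0.01 over all genes tested. After GO 3 of the 8 hepatocyte markers fell and 1 rose, and their part in the result was not tested. In bulk RNA, fewer cells with a message and less of it in each cell cannot be told apart.

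SEPP1, the secreted selenium carrier, was at 149, 163 and 154 CPM in the 3 untreated samples and at 59.7, 71.7 and 61.2 CPM after GO. Every GO sample lay below every untreated sample, and the log2 fold change was -1.28 (SE 0.13, adjusted p = 6.5e-06). How many of all genes tested separated in this way was not counted, here or in the other comparisons. SEPP1 has the lowest GC content of the 10 genes, 35.2%, and shares 1452 exonic bases with CCDC152 on the opposite strand. Since the strand setting of the counting is not given, reads of the pair cannot be told apart there. CCDC152 had group means of 1.20 to 1.95 CPM, which do not show how reads in the shared bases were counted. A further gene on that strand, which shares 604 exonic bases, had 0 counts in every sample.

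SEPHS2, which makes selenophosphate, had untreated levels of 524, 514 and 532 CPM and GO levels of 293, 352 and 333 CPM. The groups did not overlap, with a log2 fold change of -0.68 (SE 0.09, adjusted p = 4.2e-05). SECISBP2, the SECIS binding protein, was at 76.4, 77.1 and 78.2 CPM untreated and at 45.7, 54.7 and 51.4 CPM after GO, a log2 fold change of -0.61 (SE 0.10, adjusted p = 0.00022). In all 3 genes GO replicate 1, the sample with the highest mitochondrial share, was the lowest of its group, and its part in the result was tested by leaving it out: SEPP1, SEPHS2 and SECISBP2 still passed. The other GO samples held 12.1% and 14.8% mitochondrial counts, against at most 6.28% in untreated cells, so that fit did not test the part of the share. With mitochondrially encoded genes left out of the counts the 3 genes also passed. Their log2 fold changes were then -1.27 for SEPP1, -0.67 for SEPHS2 and -0.60 for SECISBP2. Whatever else goes with a high share was not tested. The paper's listing of RNA quality, without replicate numbers, has its lowest RNA integrity number in the first GO entry.

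The glutathione peroxidases reduce peroxides with glutathione. GPX1, the cytosolic form, was at 106, 85.3 and 93.9 CPM untreated and at 82.0, 64.3 and 58.0 CPM after GO. The groups did not overlap, but the log2 fold change of -0.48 (SE 0.18) did not pass at an adjusted p of 0.040. GPX4, which acts on lipid peroxides in membranes, was at 211, 202 and 207 CPM untreated and at 207, 139 and 136 CPM after GO, so that GO replicate 1 sat within the untreated range and the other 2 samples far below it (log2 fold change -0.36, adjusted p = 0.076). GPX2, the gastrointestinal form, with 205, 192 and 199.8 CPM untreated against 233, 163 and 168 CPM, and GPX3, the secreted plasma form, with 279, 272 and 280.5 CPM against 361, 276 and 268 CPM, overlapped between the groups. Their log2 fold changes were -0.08 (95% interval -0.40 to 0.23) and 0.12 (-0.14 to 0.38).

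The 3 remaining genes did not pass either. SEPW1, a small protein with a thioredoxin-like fold, was at 45.9, 48.0 and 48.9 CPM untreated and at 52.1, 34.99 and 39.5 CPM after GO (log2 fold change -0.18). SELM, a protein of the endoplasmic reticulum, was at 14.5, 11.3 and 12.9 CPM against 22.0, 12.4 and 11.9 CPM (0.25), and TXNRD2, the mitochondrial thioredoxin reductase, at 21.3, 18.2 and 19.3 CPM against 23.5, 21.5 and 23.3 CPM (0.21). Except in TXNRD2, where 2 of the 3 GO samples were nearly equal, GO replicate 1 stood alone at the top of its group. GO replicate 1 was the highest GO sample for 7 of the 10 genes and the lowest for the other 3. Without it 5 genes fell, GPX4 (log2 fold change -0.59, adjusted p = 0.0026) and SEPW1 (-0.35, adjusted p = 0.0092) joining the 3 above. With GO–Rg3 replicate 2 left out of the fit, the adjusted p of GPX1 was 0.0056. With library totals alone GPX4 also passed (-0.51, adjusted p = 0.0060).

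After GO–Rg3 none of the 10 genes passed the test against untreated cells. SEPP1 came closest, at 0.642 times its untreated level, a log2 fold change of -0.64. By edgeR's quasi-likelihood test 0 genes rose and 0 fell, 5 of the 10 had an unadjusted p under 0.05, and the Wald test of DESeq2 passed 1, SEPP1. This comparison had few calls in general: of all genes tested, 0.0585% rose, 0.105% fell and 0.0585% were called. Shares of all genes with an unadjusted p under 0.05, or passed by DESeq2, were not counted, here or for the lists below. No excess is read from such counts. The median log2 fold change was -0.28 over the 10 genes and -0.00 over all genes tested, and 1 of the 10, TXNRD2, had a positive value.

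SEPP1 was at 81.8, 116 and 101.9 CPM after GO–Rg3, and all 3 samples lay below the untreated ones. Its adjusted p was 0.025 (SE 0.13), which missed the threshold of 0.01. Over the alternative settings it ranged from 1.7e-05 to 0.125 and was under 0.01 in 6 of 23, among them DESeq2 (0.00079) and the fit without GO replicate 1 (0.0069).

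SEPHS2 at 423, 443 and 447 CPM (log2 fold change -0.26, adjusted p = 0.17) and SECISBP2 at 66.3, 75.4 and 70.3 CPM (-0.13, adjusted p = 0.63) also lay below their untreated samples in all 3 replicates. So did GPX4 at 171, 121 and 164 CPM (-0.45, adjusted p = 0.20) and SEPW1 at 34.3, 35.4 and 36.3 CPM (-0.43, adjusted p = 0.11). None of these genes passed in the main fit, and such separation was not counted over all genes tested, so no fall is read from it. Without GO replicate 1 in the fit the adjusted p of SEPW1 was 0.0087. GPX1 at 85.5, 47.3 and 76.0 CPM (-0.45), GPX2 at 200.4, 160.1 and 188 CPM (-0.12), GPX3 at 290.1, 256 and 261 CPM (-0.04), SELM at 13.1, 7.97 and 10.5 CPM (-0.29) and TXNRD2 at 25.2, 16.04 and 20.8 CPM (0.08) overlapped with untreated cells. GO–Rg3 replicate 2 was the lowest of its group for 6 of the 10 genes, the 4 peroxidases, SELM and TXNRD2.

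Set directly against GO at the same dose and time, GO–Rg3 left SEPP1 1.56 times, SECISBP2 1.39 times and SEPHS2 1.34 times as high, the same 3 genes that GO had lowered. These 3 of the 10 rose, 0 fell and 0 were called. Of all genes tested, 7.33% rose, 6.25% fell and 2.77% were called, and the median log2 fold change was -0.06 over the 10 genes and -0.02 over all. Both comparisons use the same GO samples, so that these rises are not independent of the falls after GO. The paper reports that loading Rg3 also made the flakes larger, thicker and less negatively charged. No group had Rg3 alone, so the part of Rg3 and the part of the altered flakes cannot be told apart.

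The log2 fold changes were 0.64 for SEPP1 (SE 0.13, adjusted p = 0.0026), 0.48 for SECISBP2 (SE 0.10, adjusted p = 0.0027) and 0.42 for SEPHS2 (SE 0.09, adjusted p = 0.0030). In each gene every GO–Rg3 sample lay above every GO sample. The calls were close to the threshold. Without GO replicate 3 their adjusted p values were 0.015, 0.012 and 0.012, without GO–Rg3 replicate 3 they were 0.013, 0.013 and 0.018, and in a fit of only these 6 samples 0.025, 0.034 and 0.042. SEPP1 also missed without GO–Rg3 replicate 2 (adjusted p = 0.011).

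The other 7 genes did not pass, and their intervals show what difference these samples allow. For the peroxidases the 95% interval of the log2 fold change of GO–Rg3 against GO was -0.35 to 0.42 for GPX1, -0.35 to 0.27 for GPX2, -0.43 to 0.09 for GPX3 and -0.42 to 0.25 for GPX4. It was -0.52 to 0.01 for SEPW1, -0.42 to 0.15 for TXNRD2 and -0.997 to -0.080 for SELM, whose log2 fold change of -0.54 had an adjusted p of 0.075.

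**Figure D2:**
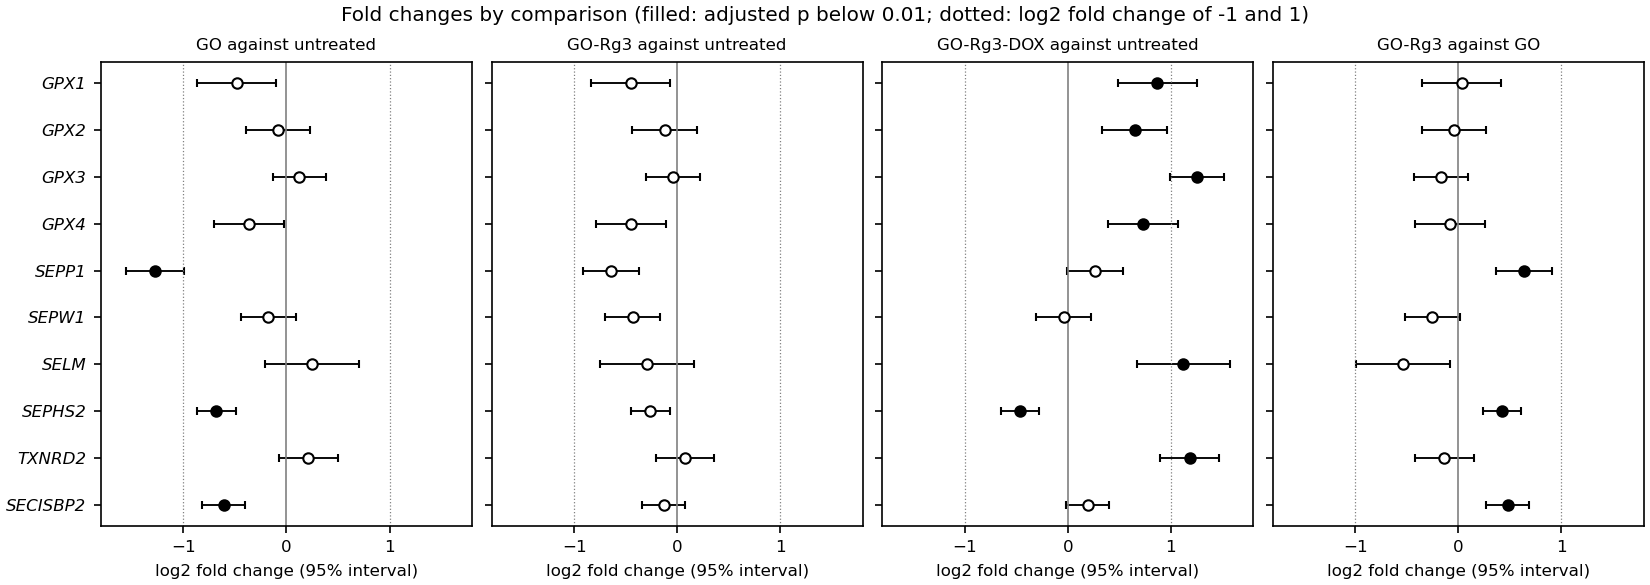
Log2 fold change (horizontal axis) with its 95% interval for each of the 10 genes in the 4 comparisons, fitted to 3 samples per group; filled points have an adjusted p below 0.01, and dotted lines mark -1 and 1. Filled points are SEPP1, SEPHS2 and SECISBP2 for GO, none for GO–Rg3, 7 genes for GO–Rg3–DOX, and SEPP1, SEPHS2 and SECISBP2 again, with the opposite sign, for GO–Rg3 against GO.

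After GO–Rg3–DOX the peroxidase messages were higher than in untreated cells. GPX3 rose 2.39-fold, TXNRD2 2.27-fold, SELM 2.18-fold, GPX1 1.83-fold, GPX4 1.66-fold and GPX2 1.57-fold, while SEPHS2 fell to 0.726 times its untreated level. Thus 6 of the 10 genes rose, 1 fell and 3, GPX3, TXNRD2 and SELM, were called. With library totals alone 0 were called, and with an offset for GC content 1, GPX3. This treatment changed much of the transcriptome: of all genes tested, 25.5% rose, 30.5% fell and 30.8% were called. The median log2 fold change of the 10 genes was 0.69, against -0.06 over all genes tested. Hepatocyte markers moved at the same time: 6 of 8 rose, 1 fell and 4 were called, with a median of 0.60, and COL1A2 rose (1.19). Their part in the result was not tested.

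GPX3 was at 761, 614 and 606 CPM, with a log2 fold change of 1.25 (SE 0.12, adjusted p = 3.9e-07). GPX1 was at 159.7, 181 and 182 CPM (log2 fold change 0.87, SE 0.18, adjusted p = 0.00052). GPX4 reached 385, 325 and 318 CPM (0.73, SE 0.16, adjusted p = 0.00085) and GPX2 377, 275 and 283 CPM (0.65, SE 0.15, adjusted p = 0.0012). In all 4 peroxidases every GO–Rg3–DOX sample lay above every untreated sample, and in GPX2, GPX3 and GPX4 replicate 1 stood apart at the top. The share of all genes tested that separated in this way was not counted. TXNRD2 was at 46.0, 44.0 and 43.8 CPM (1.18, SE 0.13, adjusted p = 1.7e-06) and SELM at 29.99, 27.3 and 27.1 CPM (1.12, SE 0.21, adjusted p = 0.00025), both tight within the group and above all untreated samples.

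SEPHS2 went the other way, with 378, 387 and 376 CPM, all below the untreated samples (log2 fold change -0.46, SE 0.09, adjusted p = 0.00026). SEPP1, at 162, 192 and 208 CPM, overlapped with untreated cells (0.27, adjusted p = 0.076). SECISBP2, at 79.8, 91.2 and 93.8 CPM, lay just above them without passing (0.19, adjusted p = 0.093), and SEPW1, at 51.0, 43.3 and 45.0 CPM, overlapped (-0.04, 95% interval -0.31 to 0.23). The 12 fits that each left out 1 sample all passed the same number of genes, 7. Those without a GO or GO–Rg3 sample kept both compared groups whole, so their fold changes could hardly move.

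The size of these rises depended on the scaling. TMM factors were 0.737 to 0.863 in the GO–Rg3–DOX samples and 1.088 to 1.101 in untreated ones, and with library totals alone the median of all genes moved from -0.06 to -0.47 on the log2 scale and that of the 10 genes from 0.69 to 0.26. Then 3 genes rose, GPX3 at 0.83, TXNRD2 at 0.77 and SELM at 0.70, and 2 fell (SEPHS2 and SEPW1), while GPX1 at 0.46 (adjusted p = 0.032), GPX4 at 0.30 (adjusted p = 0.048) and GPX2 at 0.22 (adjusted p = 0.096) no longer passed. SEPP1 at -0.14 and SECISBP2 at -0.22 changed sign under that scaling. Summed over the 10 genes, the share of all counts was 0.174% to 0.178% in untreated cells, 0.121% to 0.128% after GO, 0.143% to 0.154% after GO–Rg3 and 0.179% to 0.188% after GO–Rg3–DOX.

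**Figure D3:**
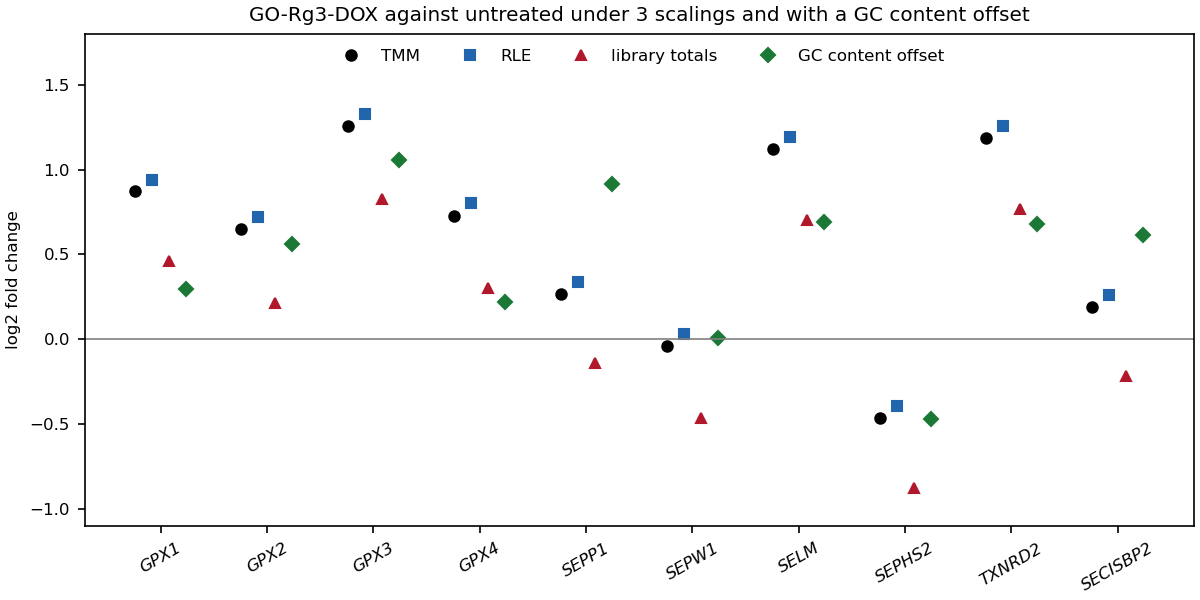
Log2 fold change of each gene after GO–Rg3–DOX against untreated cells (vertical axis), with TMM, RLE, library totals alone or TMM with an offset for GC content. GPX3, SELM and TXNRD2 lie above 0 and SEPHS2 below 0 in all 4 fits, while SEPP1 ranges from -0.14 to 0.92.

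Fold changes in these samples also moved with the base composition of the transcripts. Over 16622 tested genes with a sequence, Spearman's rank correlation across genes of the log2 fold change with GC content was 0.43 after GO, 0.20 after GO–Rg3, 0.36 after GO–Rg3–DOX and -0.43 for GO–Rg3 against GO; genes are not independent replicates, and no p is given. With the genes divided into 10 equal bins, the median log2 fold change after GO was -0.42 in the bin of lowest GC content and 0.41 in the highest, and after GO–Rg3–DOX it was -0.56 and 0.75. The 10 genes span this range, from SEPP1 (35.2%) and SECISBP2 (41.4%) through SEPW1 (49.9%), SEPHS2 (51.2%), GPX2 (53.1%) and GPX3 (55.6%) to SELM (60.8%), GPX4 (62.5%), TXNRD2 (62.6%) and GPX1 (64.1%). Their median of 54.4% was above that of all genes, 47.8%.

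With a loess offset for GC content in each sample, the falls of SEPP1, SEPHS2 and SECISBP2 after GO still passed, SEPP1 at -0.90 in place of -1.28, SECISBP2 at -0.40 in place of -0.61 and SEPHS2 at -0.77 in place of -0.68. They were joined by GPX1 (log2 fold change -0.90, adjusted p = 2.5e-06) and GPX4 (-0.75, adjusted p = 4.4e-05), and all 10 values were negative. After GO–Rg3–DOX the same offset took GPX4 to 0.22 (adjusted p = 0.074), SEPP1 to 0.92 (adjusted p = 3.8e-08) and SECISBP2 to 0.61 (adjusted p = 4.8e-07), so that 7 genes rose and SEPHS2 fell. For GO–Rg3 against GO it left SEPP1 at 0.31 (adjusted p = 0.0077), SECISBP2 at 0.33 (adjusted p = 0.0015) and SEPHS2 at 0.54 (adjusted p = 0.00023). With the offset the log2 fold changes after GO–Rg3–DOX were 0.30 for GPX1, 0.68 for TXNRD2, 0.69 for SELM and 1.06 for GPX3. GPX1, GPX2, GPX3, GPX4, SELM and TXNRD2 stayed above 0 after GO–Rg3–DOX in all 23 alternative fits, and SEPHS2 stayed below 0.

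**Figure D4:**
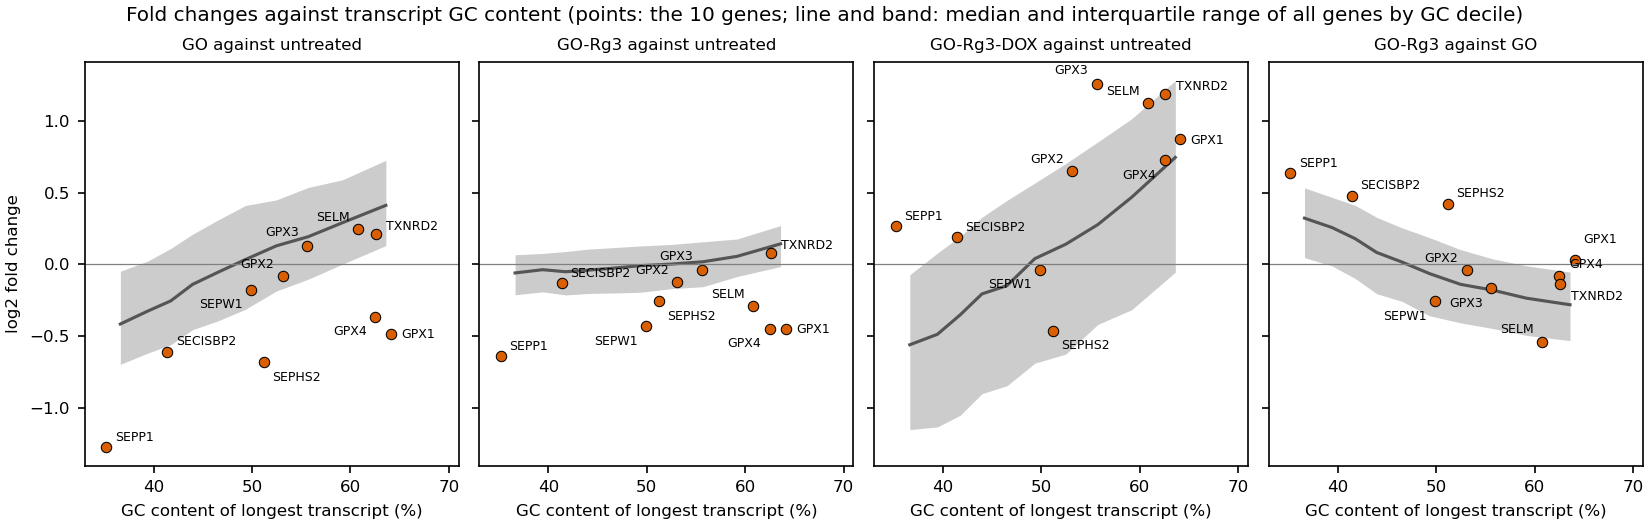
Log2 fold change (vertical axis) against GC content of the longest transcript in percent (horizontal axis) in the 4 comparisons; orange points are the 10 genes, and the line and grey band are the median and the interquartile range of all genes in 10 bins of GC content. After GO, SEPP1 at 35.2% GC and -1.28 lies below the band, as do SECISBP2, SEPHS2, GPX4 and GPX1, and after GO–Rg3–DOX GPX3 and SEPP1 lie above it at 1.25 and 0.27.

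Across all 12 samples the most similar pairs among the 10 genes were GPX1 and GPX4 (Pearson's r of log2 CPM 0.97), SEPP1 and SECISBP2 (0.96), GPX2 and GPX4 (0.96) and GPX3 and TXNRD2 (0.95). The least similar pairs all held SEPHS2, with r of -0.43 to SELM, -0.40 to TXNRD2 and -0.35 to GPX3. The points share libraries and their scaling, and these values are a description. Among all other tested genes, those most like SEPP1 over the 12 samples were ITM2B (r = 0.996), EIF2B1 (0.992) and ANXA4 (0.992). For GPX3 they were CAPZB (0.998), POLDIP2 (0.998) and PDAP1 (0.995), and for TXNRD2 FBLN1 (0.998), MAN2B1 (0.997) and MAN1B1 (0.997).

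Of 16 further selenoprotein genes, 12 had enough counts to be tested. DIO3, the deiodinase that inactivates thyroid hormone, had enough only through GO–Rg3–DOX, with 33 to 51 counts per sample there and 2 to 7 in the other groups, and is left out of the counts that follow. After GO, 1 of the other 11 rose, 6 fell and 1 was called, against 12.1%, 15.4% and 6.47% of all genes tested. Their median log2 fold change was -0.58. SEP15, a protein of the endoplasmic reticulum that works with a glycoprotein folding sensor, fell from 199, 198 and 186 CPM to 72.1, 84.4 and 71.8 CPM, a log2 fold change of -1.35 (adjusted p = 2.8e-05). SEPN1, a membrane protein of the endoplasmic reticulum, was the only one to rise, from 97.9, 90.3 and 98.8 CPM to 178, 148 and 170.3 CPM (0.79, adjusted p = 0.0011). The others that fell were SELT (-0.90), SELK (-0.68), TXNRD1 (-0.66), MSRB1 (-0.58) and VIMP (-0.47).

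Against GO, GO–Rg3 raised 3 of the 11 and lowered 0: SEP15 (log2 fold change 0.83, adjusted p = 0.0022), SELT (0.70, adjusted p = 0.0016) and EPT1, a phospholipid synthesis enzyme (0.59, adjusted p = 0.0021). Of all genes tested, 7.33% rose and 6.25% fell in this comparison. Against untreated cells GO–Rg3 raised and lowered 0 of all 12 in edgeR's test and in DESeq2. In edgeR's test only 0.0585% of all genes tested rose and 0.105% fell there. Of the 12, 3 in edgeR's test and 4 in DESeq2 had an unadjusted p under 0.05, and SEP15 was at -0.52 (adjusted p = 0.13). After GO–Rg3–DOX 3 of the 11 rose, 1 fell and 2 were called, against 25.5%, 30.5% and 30.8% of all genes tested. SEPN1 was at 403, 297 and 309 CPM (1.81, adjusted p = 1.3e-07), and SELO (0.70, adjusted p = 0.0044) also rose, though with library totals alone its adjusted p was 0.20 and with the GC offset 0.99. DIO1, a deiodinase that can activate thyroid hormone, had 0.192 to 0.397 CPM in untreated cells against 0.647 to 0.724 CPM (1.11, adjusted p = 0.0096, but 0.011 in DESeq2 and 0.083 with library totals alone). EPT1 fell (-0.68, adjusted p = 0.00011), though not with the GC offset (-0.12, adjusted p = 0.21).

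A further list held 13 genes of selenium uptake and selenocysteine insertion. After GO, 1 rose and 2 fell, against 12.1% and 15.4% of all genes tested: LRP2, a receptor for SEPP1, at 0.76 (adjusted p = 0.0025), RPL30, a ribosomal protein that binds the SECIS element, at -0.68 (adjusted p = 0.0029), and EIF4A3, a helicase that also binds it, at -0.52 (adjusted p = 0.00024). With library totals alone LRP2 had an adjusted p of 0.018. After GO–Rg3, 0 rose and 0 fell in edgeR's test, against 0.0585% and 0.105% of all genes tested. Of the 13, 4 had an unadjusted p under 0.05, and DESeq2 passed 1. Against GO the counts for GO–Rg3 were 0 and 0, where 7.33% of all genes tested rose and 6.25% fell. Of the 13, 3 had an unadjusted p under 0.05 there, and DESeq2 passed 1. After GO–Rg3–DOX 3 rose and 3 fell, with 25.5% and 30.5% over all genes tested. SECISBP2L, the paralogue of SECISBP2, fell from 71.3, 68.6 and 69.3 CPM to 16.8, 18.2 and 19.7 CPM (-1.94, adjusted p = 6.7e-08), in contrast to SECISBP2 itself at 0.19. SEPSECS, which makes selenocysteine on its tRNA (-0.71), and TRNAU1AP, which binds that tRNA (-0.67), also fell, whereas LRP2 (0.94), SEPHS1, the relative of SEPHS2 without selenocysteine (0.46), and NCL, nucleolin (0.44), rose. None of these 3 rises passed with library totals alone, where LRP2 was at 0.52 (adjusted p = 0.029), SEPHS1 at 0.04 and NCL at 0.02; under that scaling 0 of the 13 rose and 6 fell, and their median log2 fold change was -0.38 in place of 0.04.

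Of 6 relatives that carry cysteine in place of selenocysteine, 5 were tested. MSRB3, a methionine sulfoxide reductase, fell after GO (-0.70, adjusted p = 0.0020) and was higher after GO–Rg3 than after GO (0.70, adjusted p = 0.0041). It was the only one of the 5 to pass in either comparison, and 0 passed for GO–Rg3 against untreated cells in edgeR's test or DESeq2 (1 at an unadjusted p under 0.05). Of all genes tested, 12.1% rose and 15.4% fell after GO, and 7.33% rose and 6.25% fell for GO–Rg3 against GO. For GO–Rg3 against untreated cells these shares were only 0.0585% and 0.105%. After GO–Rg3–DOX MSRA, which repairs the other form of oxidised methionine, rose (1.03, adjusted p = 0.00015), and GPX8 fell (-0.68, adjusted p = 0.0038), though not with the GC offset (-0.20, adjusted p = 0.28). After that treatment 25.5% of all genes tested rose and 30.5% fell.

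Among 13 glutathione and thioredoxin partners, 12 were tested, and after GO 6 of them fell, 0 rose and 2 were called, against 15.4%, 12.1% and 6.47% of all genes tested. PRDX3, the mitochondrial peroxiredoxin, fell from 425, 418 and 424 CPM to 140.4, 186 and 164 CPM (-1.37, adjusted p = 3.2e-05). GCLM, the modifier subunit of the enzyme that starts glutathione synthesis, fell from 164, 167 and 156 CPM to 60.9, 87.5 and 84.4 CPM (-1.06, adjusted p = 2.0e-05). GO–Rg3 raised 3 of the 12 against GO and lowered 0: GCLM (0.98, adjusted p = 9.1e-05), PRDX3 (0.84, adjusted p = 0.0024) and GSR, glutathione reductase (0.41, adjusted p = 0.0073, but 0.013 without GO replicate 1). Of all genes tested, 7.33% rose and 6.25% fell in this comparison. Against untreated cells GO–Rg3 raised and lowered 0 of the 12, where only 0.0585% of all genes tested rose and 0.105% fell. Of the 12, 6 had an unadjusted p under 0.05 and DESeq2 passed 1, with no such shares counted over all genes.

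After GO–Rg3–DOX 6 of the 12 partners rose, 2 fell and 1 was called, against 25.5%, 30.5% and 30.8% of all genes tested. Their median log2 fold change was 0.50, but with library totals alone it was 0.07, with 4 rises and 2 falls. PRDX5, a peroxiredoxin found in mitochondria and peroxisomes, rose from 136, 125.7 and 132 CPM to 304, 267 and 259 CPM (1.08, adjusted p = 9.8e-06), with values of 0.66 both with library totals alone and with the GC offset. TXN2, the mitochondrial thioredoxin that TXNRD2 reduces, was at 162, 136 and 136 CPM against 74.3, 71.9 and 77.8 CPM (0.95, adjusted p = 9.0e-06). GCLM (-0.89, adjusted p = 1.4e-05, but -0.31 with the GC offset, which still passed) and GCLC (-0.85, adjusted p = 4.0e-05), both subunits of the first enzyme of glutathione synthesis, fell.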

How the data were processed

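The authors prepared stranded libraries of polyadenylated RNA, mapped the reads to GRCh37 with a published pipeline and counted them per gene with featureCounts; the version, annotation release and strand setting are not given in the sources used here. What the authors deposited is a table of unnormalized counts, in whole numbers, of 63677 genes in 12 samples; groups and replicate numbers come from the labels. A gene was tested where 3 or more samples had 10 or more counts. One model over all 12 samples was fitted with TMM scaling and the quasi-likelihood test of edgeR 4.0.16 (R 4.3.3), with Benjamini-Hochberg adjustment over 17092 genes in each of 4 comparisons. The study used DESeq2 with the same filter and thresholds, and DESeq2 1.42.0 is an alternative here. GO–Rg3–DOX was not tested against GO–Rg3, since the doses differ.

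Alternatives were RLE scaling, library totals, mitochondrial genes left out, other filters and thresholds, offsets for GC content and length (loess, span 0.5), the replicate block, only the 6 samples compared, and each sample left out in turn. On simulated counts the fit for GO against untreated cells recovered 195 of 200 genes changed by 1.5 on the log2 scale among 17092 genes, with 1 false call.

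The 10 genes and the lists were chosen with earlier results of these data known. Genes named from the lists were those called in any comparison and, for each list and comparison, the largest rise and fall among genes past the test with a mean of at least 1 CPM; SELT, SELK, TXNRD1, MSRB1, VIMP, SELO, SEPHS1, NCL, SEPSECS, TRNAU1AP, EIF4A3, TXN2, GCLC and GSR were named beyond that after their values were seen. SEP15 stands in the table as a calendar date and was matched by its identifier. GPX1 shares 572 exonic bases with a gene on the same strand that has no row, and the pseudogene GPX1P1 had 2 to 37 counts per sample. A further overlap between genes is not reported here. DIO3 was left out of its list's counts after its values were seen.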

Additional observations from a re-analysis of the deposited data

How the results depend on the processing

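Of 920 fold changes recomputed for the 10 genes in the 4 comparisons, 828 kept their sign and their side of the threshold. Of the rest, 46 changed sign, 30 newly passed and 16 no longer passed, and the causes were not tested. Many of the 920 came from fits that left out a sample of neither compared group. In those the fold change could hardly move, although the adjusted p could, so the tally overstates how stable the values are. For GO the number of genes passed, 3, became 5 without a filter on low counts, 5 with the GC content offset, and 3 to 5 when each sample was left out. For GO–Rg3 the count of 0 became 2 without the filter, 1 in DESeq2, 2 with the GC content offset, 1 at an adjusted p below 0.05 and 0 to 2 with 1 sample left out. For GO–Rg3–DOX the count of 7 became 2 at an adjusted p below 1e-04 and stayed at 7 with each sample left out. For GO–Rg3 against GO the count of 3 became 0 in the 6-sample fit and 0 at 1e-04, and was 0 to 3 with 1 sample left out; these fits hold fewer samples or a stricter threshold. Genes also past a 2-fold change were 1 for GO, or 0 with the GC content offset, and 3 for GO–Rg3–DOX, or 1 with that offset and 0 with library totals alone.

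The labels give each group replicates 1 to 3 without saying what they share. Deviations from the group mean, over genes, had a mean correlation of 0.091 between samples with 1 number (18 pairs, -0.024 to 0.25). For other pairs it was -0.045. Deviations within a group sum to 0, so the value for other pairs largely follows from the first and is no separate contrast. With the replicate block the counts were 3 for GO, 1 for GO–Rg3 (SEPP1), 7 for GO–Rg3–DOX and 3 for GO–Rg3 against GO, and with block and GC content offset 5, 3, 7 and 3.

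Sign changes were among genes that had not passed. With the GC content offset, and then with the block added, the log2 fold changes for GO were -0.084 and -0.091 for GPX3, -0.10 and -0.12 for SELM, and -0.16 and -0.16 for TXNRD2. They were -0.00201 and -0.00216 for TXNRD2 after GO–Rg3, and 0.0085 and 0.0041 for SEPW1 after GO–Rg3–DOX. For GO–Rg3 against GO they were 0.13 and 0.13 for GPX2, 0.049 and 0.054 for GPX3, 0.23 and 0.24 for GPX4, and 0.16 and 0.15 for TXNRD2. With library totals alone GPX3 was -0.012 for GO, SEPP1 -0.14 and SECISBP2 -0.22 for GO–Rg3–DOX, and GPX2 0.13, GPX4 0.088 and TXNRD2 0.014 for GO–Rg3 against GO. SEPW1 after GO–Rg3–DOX was 0.034 with RLE, 0.034 in DESeq2, 0.10 with the length offset and 0.0039 in the 6-sample fit, and GPX3 after GO–Rg3 was 0.027 and 0.031 in the last 2. The length offset gave GPX2 0.095 and GPX4 0.028 for GO–Rg3 against GO.

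With each sample left out in turn, the range for GO was -0.024 to 0.21 for GPX3, -0.093 to 0.41 for SELM and -0.27 to 0.011 for GPX2. It was -0.088 to 0.23 for TXNRD2 after GO–Rg3 and -0.11 to 0.0099 for SEPW1 after GO–Rg3–DOX. For GO–Rg3 against GO it was -0.14 to 0.25 for GPX1, -0.13 to 0.14 for GPX2, -0.19 to 0.14 for GPX4 and -0.30 to 0.017 for TXNRD2.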
